A study of Homo sapiens with 12 samples.

Results

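The respiratory chain in the inner mitochondrial membrane passes electrons from NADH through complex I, and from succinate through complex II, to ubiquinone, then through complexes III and IV to oxygen. The protons pumped on the way drive complex V, the ATP synthase. Most of its subunits are encoded in the nucleus, a smaller core is encoded by mitochondrial DNA, and macrophages are known to shift between respiration and glycolysis on activation. The nuclear-encoded members described here are the protein-coding genes of the deposited table whose symbols carry the family names of these complexes (NDUFA, NDUFB, NDUFC, NDUFS and NDUFV for complex I, SDHA to SDHD for complex II, UQCR for III, COX4 to COX8 for IV, ATP5 for V). They numbered 98 of 58051 genes: 39 of complex I, 8 complex I assembly factors that share the NDUFA prefix (NDUFAF1 to NDUFAF8), 4 of complex II, 9 of III, 17 of IV, 19 of V and 2 read-through transcripts. CYC1, a complex III subunit, has another name and was counted with the carriers further on.

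The study sequenced messenger RNA of the THP-1 line, which derives from a human monocytic leukaemia, in 4 groups of 3 libraries. All cells had received phorbol 12-myristate 13-acetate (PMA) at 20 ng/ml for 24 h, which turns them into macrophage-like cells, and the medium was then changed. Wild-type cells and cells with the heparan sulphate proteoglycan gene SDC3 knocked out by CRISPR/Cas9 were each left at that or given recombinant human interferon gamma (IFN-γ) the next day. How much IFN-γ was given, for how long, and how many knockout clones were used is not stated in the sources at hand. Nor is it stated whether replicates were separate cultures, so p-values measure the spread between these libraries, which may be technical.

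Libraries held 23616738 to 29426415 counts, and the members took 0.773% to 0.965% of them. SDC3 itself was counted at 196 to 252 CPM (the gene's count relative to its library's total, scaled by TMM, a method that sets libraries to a common level for most genes) in wild-type cells and 43.9 to 49.9 in knockout cells. With IFN-γ it stood at 572 to 590 and at 237 to 244. Macrophage markers summed to between 3200 and 4120 CPM in every library, while CD2, MS4A1, HBB and HBA1 were at 0 in all 12. Behind that sum, single macrophage markers differed between the groups. LYZ had means of 1300 CPM in wild type and 896 in knockout, and of 533 and 230 with IFN-γ. Without IFN-γ, CD163 had means of 25.3 in wild type and 8.74 in knockout, and MRC1 of 31.8 and 7.98. CSF1R (1250 and 1440), CD14 (322 and 390) and FCGR1A (44.4 and 47.8) went the other way there. CD68, a defining macrophage marker, was at or below 0.648 CPM throughout. Markers of granulocyte and monocyte precursors (MPO, ELANE, PRTN3, AZU1, CTSG, 5 of 5 detected) differed between the groups in their sum. It was 124 to 133 CPM in wild type, 192 to 215 in knockout, 24.4 to 26.1 in wild type with IFN-γ and 83.7 to 97.5 in knockout with IFN-γ. Endothelial markers summed to between 327 and 833 CPM, nearly all from PECAM1, which myeloid cells also express, with CDH5 at or below 0.123. The part of these marker lists in the results was not tested.

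Of the 98 members, 87 had enough counts for a test. The 37 genes of the mitochondrial genome, which hold the remaining subunits, were listed at 0 counts in all libraries, so the chain could be followed only on its nuclear side. The untested members included the isoforms known from muscle, lung or testis: COX6A2, COX7B2 and COX8C had no count in any library, COX4I2 had 2 counts in all, COX6B2 had 23 and COX7A1 had 24. Their partners COX6A1, COX8A, COX4I1 and COX7A2 were each counted in every library. ATP5MGL, a paralog of ATP5MG, had 57 counts over the 12 libraries. The 2 read-through transcripts (ATP5MF-PTCD1 and NDUFC2-KCTD14) had 5 and 0.

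NDUFV2 and NDUFA7, subunits of complex I found in all tissues, were untested as well, with 33 and 50 counts over the 12 libraries. By the file's command, a read over exons of more than 1 gene is not assigned, and 28.4% of the exon bases of NDUFV2 and 33.5% of those of NDUFA7 lie in exons of another gene. The single NDUFV2 pseudogene held 6744 counts. NDUFB11 and NDUFA1 shared 44.9% and 44.5% of their exon bases and held 12251 and 19674 counts. Levels of NDUFV2 and NDUFA7 cannot be read from this table, and the cause of their low counts was not tested. Of all members, 49 shared some exon base with another gene and 20 shared more than 20%, among them ATP5F1E (23.2%), ATP5PF (23.1%), ATP5PO (25.4%), NDUFAF3 (21.7%) and COX8A (34.5%). Same-named pseudogenes, with P and a number after the symbol, existed for 52 members and held 1.92% as many counts as the members did. COX6A1 (10718 counts in pseudogenes, 9663 in the gene), SDHA, NDUFA4 and SDHC stood out, and their values are uncertain to that extent. UQCRHL, a like-named copy of UQCRH, is not among these pseudogenes and was counted as a complex III member. It held 30569 counts beside 53793 of UQCRH, and how reads divided between the 2 was not tested.

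Levels per kilobase of exon differed widely among the members of 1 machine. In wild-type cells without IFN-γ, ATP5F1B, the catalytic beta subunit of ATP synthase, was highest at 422 CPM per kilobase. NDUFS5 (174), COX6B1 (168), COX8A (121) and UQCRH (120) followed on the same scale. NDUFA9 (0.934 CPM per kilobase) and NDUFA4L2 (0.796) were at the low end among tested complex I genes, with NDUFA13 at 0.834. The exon length of the table counts every annotated exon, so a gene with many rare exons reads low on this scale.

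Promoter stretches are printed for 4 members on which the results turn: ATP5IF1 rose most with the knockout, SDHB and ATP5F1E rose with IFN-γ in both genotypes, and COX5B has a match to a motif known from respiratory genes. Each is the run of bases before the first annotated exon, out of a window of 250 bases before to 50 after the RefSeq gene start (GRCh38.p14, the same assembly family as the hg38 of the counts), written 5′ to 3′ on the gene's strand. Capitals mark a motif match.
ATP5IF1, chr1:28235874-28236108, plus strand: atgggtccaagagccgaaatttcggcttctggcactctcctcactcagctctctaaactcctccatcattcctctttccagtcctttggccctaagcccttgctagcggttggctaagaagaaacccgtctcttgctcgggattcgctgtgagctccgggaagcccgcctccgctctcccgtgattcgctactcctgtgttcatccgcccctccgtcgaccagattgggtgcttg
SDHB, chr1:17054171-17054282, minus strand: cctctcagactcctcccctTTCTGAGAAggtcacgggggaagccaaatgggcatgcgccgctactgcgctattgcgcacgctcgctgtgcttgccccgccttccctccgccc
ATP5F1E, chr20:59032383-59032585, minus strand: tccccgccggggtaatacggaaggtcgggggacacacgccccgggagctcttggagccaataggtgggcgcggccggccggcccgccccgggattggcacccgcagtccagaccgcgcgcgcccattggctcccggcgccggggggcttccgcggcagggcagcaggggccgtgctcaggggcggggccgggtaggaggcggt
COX5B, chr2:97645812-97646039, plus strand: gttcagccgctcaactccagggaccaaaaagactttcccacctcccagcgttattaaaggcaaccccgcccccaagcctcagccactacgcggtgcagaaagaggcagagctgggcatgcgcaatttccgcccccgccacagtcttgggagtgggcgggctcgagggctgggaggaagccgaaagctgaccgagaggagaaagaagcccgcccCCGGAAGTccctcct

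In COX5B the capitals, 37 to 30 bases before the start, spell CCGGAAGT, the core bound by ETS factors such as GABPA. In SDHB they fit TTCNNNGAA, the palindrome known as the GAS element of STAT factors, 231 to 223 bases before the start. Windows of 300 bases were at hand for 78 of the 98 members. On either strand, CCGGAAGT occurred in 10 of the 78 (12.8%), against 6.16% of 15843 protein-coding promoters of the same length. The NRF1 core GCGCATGCG occurred in 10 (12.8%, against 2.76%) and the YY1 core AAGATGGCG in 9 (11.5%, against 2.69%). TTCNNNGAA occurred in 6 (7.69%, against 6.98%). NRF1, GABPA and YY1 are known regulators of respiratory genes, and the matches are a description of letters, not of binding.

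Knockout and wild-type macrophages differed in many members by small amounts, up and down within every large complex. Without IFN-γ, 23 of 87 tested members were higher in the knockout and 18 lower, where 25.4% and 24.8% of all 17119 tested genes were (edgeR's quasi-likelihood test, Benjamini-Hochberg adjusted p under 0.05). With IFN-γ, 21 were higher and 15 lower, against 22.9% and 24.3% of all genes. That balance depended on the scaling: it was 17 and 21 with upper-quartile scaling and 13 and 29 with library totals, and without IFN-γ 18 and 19, and 14 and 19. Of all 17119 tested genes, upper-quartile scaling called 3674 higher and 4378 lower with IFN-γ, and 4140 and 4415 without it. Library totals called 2887 and 5213 with IFN-γ, and 3869 and 4626 without it. The median log2 fold change of the members was 0.02 without IFN-γ and 0.03 with it, and that of all genes 0.01 and -0.01. With TMM these shares are near the background. In both treatments 16 members were higher, which is 69.6% of those higher without IFN-γ and 76.2% of those higher with it. Likewise 13 were lower in both (72.2% and 86.7%), and 0 were called in opposite directions. Over all tested genes the same shares were 63.8% and 70.7% for higher and 68.8% and 70.3% for lower calls.

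**Figure D1:**
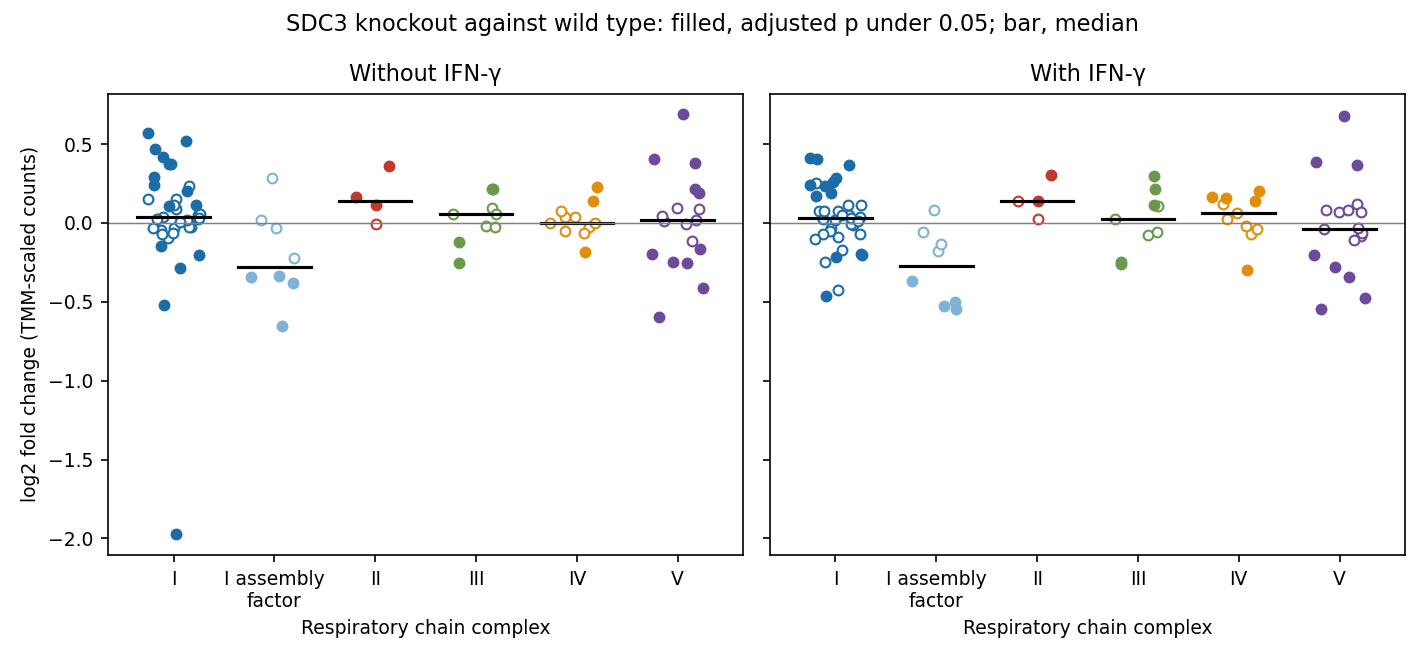
Log2 fold change of knockout against wild type for the 87 tested members, by complex, without IFN-γ (left) and with it (right). Each point is a gene, filled at an adjusted p under 0.05, and black bars are medians. The complex I assembly factors have the lowest medians (-0.28 and -0.27), and the point at -1.97 is NDUFA4L2.

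Complex V held the members that differed most at high level. ATP5IF1 (chr1:28236109-28246906), the inhibitory factor that blocks reverse ATP hydrolysis by the synthase, was counted at 74.6, 65.4 and 66.1 CPM in wild type and at 115, 109 and 108 in knockout. With IFN-γ the values were 71.1, 64.9 and 68.5 against 107, 111 and 108. All 6 knockout libraries stood above all 6 wild-type ones, and IFN-γ left overlapping values in each genotype. Its log2 fold change was 0.69 (SE 0.05, adjusted p = 7e-13) without IFN-γ and 0.67 (SE 0.05, adjusted p = 1.8e-12) with it.

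The F1 head of the enzyme was mixed, with its catalytic beta subunit lower in the knockout. ATP5F1B (chr12:56638175-56646068) stood at 966, 991 and 983 CPM in wild type and at 664, 635 and 650 in knockout, a log2 fold change of -0.59 (SE 0.03, adjusted p = 9.6e-16). With IFN-γ it stood at 1200, 1210 and 1250 against 830, 852 and 826, a log2 fold change of -0.55 (SE 0.03, adjusted p = 8.3e-15). The genotypes did not overlap in either treatment. ATP5F1A (chr18:46080248-46104334), the alpha subunit, had 693, 697 and 708 CPM in wild type and 534, 518 and 523 in knockout (log2 fold change -0.41, SE 0.04, adjusted p = 1.3e-11). With IFN-γ its values were 810, 855 and 869 against 603, 617 and 599 (log2 fold change -0.48, SE 0.04, adjusted p = 5.3e-13). The 3 F1 subunits alpha, beta and epsilon (ATP5F1E, log2 fold change -0.25 and -0.28 in the 2 treatments) were lower in the knockout, while the gamma subunit ATP5F1C was at 0.10 and 0.07 and did not pass the test. The delta subunit ATP5F1D was called higher without IFN-γ (0.19, adjusted p = 0.036) and was at -0.08 with it (adjusted p = 0.41). Its call was lost under DESeq2 (0.057), with upper-quartile scaling (0.053) and with library totals (0.092), and without any of knockout replicates 1 and 2 and wild-type replicates 1 and 2 (up to 0.13).

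The c-ring of the membrane part is built from 1 protein encoded by 3 genes. ATP5MC2 fell by 0.25 without IFN-γ and by 0.35 with it on the log2 scale (adjusted p = 2.9e-06 and 1.3e-08), and ATP5MC3 fell by 0.17 without IFN-γ (adjusted p = 0.00074) and was at -0.07 with it (adjusted p = 0.18). ATP5MC1 was lower by a margin that rested on single libraries: its log2 fold changes of -0.20 and -0.20 (adjusted p = 0.013 and 0.011) were no longer called without knockout replicate 3 or wild-type replicate 3 in the first case (adjusted p up to 0.13), or without knockout replicate 2 or 3 with IFN-γ in the second (up to 0.069). Of the 4 peripheral stalk subunits, ATP5PF and ATP5PO rose. ATP5PF, coupling factor 6 of the peripheral stalk, had log2 fold changes of 0.41 and 0.39, and ATP5PO, the stalk's oligomycin-sensitivity protein, 0.38 and 0.37, with knockout and wild-type libraries apart in each case (adjusted p at most 5.4e-05). The other two, ATP5PB (0.04 and -0.04) and ATP5PD (0.02 and -0.03), did not pass the test.

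Complex V sums also separated the genotypes. Its 19 genes added up to between 3360 and 3430 CPM in wild type and between 2860 and 2940 in knockout, and with IFN-γ to between 3860 and 4030 against 3230 to 3360. Complex III sums overlapped between genotypes (1120 to 1150 CPM in wild type, 1120 to 1150 in knockout). Complex I sums ran from 2190 to 2230 CPM in wild type and from 2380 to 2450 in knockout, and with IFN-γ from 2210 to 2270 against 2330 to 2400. By library totals alone the complex I means with IFN-γ were 2080 (SD 36.9) and 2100 (SD 25.0). Complex II sums ran from 480 to 491 CPM in wild type and from 545 to 548 in knockout, and with IFN-γ from 560 to 596 against 637 to 663. Complex IV sums were 1260 to 1270 against 1280 to 1340, and with IFN-γ 1350 against 1350 to 1430. By library totals alone the complex IV means were 1410 (SD 6.5) in wild type and 1410 (SD 33.1) in knockout. With IFN-γ they were 1260 (SD 8.97) and 1230 (SD 30.4). A sum is carried by its most abundant genes, and no test was made on it.

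Complex I had 11 members higher and 5 lower in the knockout without IFN-γ, and 9 and 3 with it, of 37 tested. Of all tested genes, 25.4% were higher and 24.8% lower without IFN-γ, and 22.9% and 24.3% with it. The same shares apply to the counts of the other complexes below. NDUFV3 (chr21:42879644-42913304), an accessory subunit of the NADH-binding arm, had 38.1, 35.9 and 39.4 CPM in wild type against 59.1, 54.3 and 54.7 in knockout, and with IFN-γ 33.5, 34.8 and 31.0 against 45.1, 42.8 and 44.1. Its log2 fold changes of 0.57 and 0.41 were the largest rises in complex I (adjusted p = 1.3e-09 and 1.7e-06), and no library overlapped between genotypes.

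The largest fall in complex I that rested on more than 5 CPM was that of NDUFA9, an accessory subunit at the joint between the arms. It had 9.72, 9.34 and 10.1 CPM in wild type and 6.98, 6.79 and 6.49 in knockout (log2 fold change -0.52, SE 0.10, adjusted p = 8.9e-05), and -0.47 (SE 0.10, adjusted p = 0.00024) with IFN-γ. NDUFS1, the largest core subunit, fell by 0.15 on the log2 scale without IFN-γ (adjusted p = 0.0015) and was at -0.07 with it (adjusted p = 0.13). NDUFV1, which binds NADH, and NDUFA4, a subunit now placed in complex IV, were called higher without IFN-γ at log2 fold changes of 0.11 and 0.11. Those calls were lost under DESeq2 and without any of 4 (NDUFV1) or 5 (NDUFA4) of the 6 libraries, with adjusted p up to 0.18 and 0.2. NDUFAB1, the mitochondrial acyl carrier protein, was at -0.03 and -0.01 with overlapping libraries.

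Assembly factors of complex I build the enzyme and are not part of it. Of the 8 with an NDUFAF name, 4 were lower in the knockout and 0 higher, in each treatment, with medians of -0.28 and -0.27. NDUFAF4 had 9.76, 9.25 and 8.96 CPM in wild type against 5.83, 6.03 and 5.87 in knockout (log2 fold change -0.66, SE 0.11, adjusted p = 5.4e-06), and with IFN-γ 8.34, 9.20 and 9.65 against 6.48, 6.27 and 6.08 (-0.53, SE 0.11, adjusted p = 0.00018). NDUFAF3, its partner in assembly of the quinone module, fell by 0.34 and 0.37, and NDUFAF8 by 0.38 and 0.50. NDUFAF6 was the fourth without IFN-γ (-0.34, adjusted p = 0.021) and NDUFAF5 the fourth with it (-0.55, adjusted p = 0.00027). All of these factors were at or below 45.2 CPM.

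Complex II, succinate dehydrogenase, links the chain to the tricarboxylic acid cycle. Its membrane anchor SDHC (chr1:161314257-161375340) had 157, 144 and 148 CPM in wild type and 191, 190 and 194 in knockout, and with IFN-γ 173, 178 and 188 against 220, 227 and 217. The log2 fold changes were 0.36 (SE 0.04, adjusted p = 1.8e-08) and 0.30 (SE 0.04, adjusted p = 4.2e-07), without overlap. SDHA, the flavoprotein, was called at 0.11 and 0.14, but the first call was lost under DESeq2 and without any of 5 libraries (adjusted p up to 0.13). The second was lost without knockout replicate 1 or wild-type replicate 1 with IFN-γ (up to 0.1). SDHD, the other anchor, was called at 0.16 without IFN-γ only as long as knockout replicates 2 and 3 and wild-type replicate 2 were all in the fit (adjusted p up to 0.19), and was at 0.14 with IFN-γ (adjusted p = 0.051). SDHB, the iron-sulphur subunit, did not pass the test, with overlapping libraries (log2 fold change 0.00 without IFN-γ and 0.03 with it, SE 0.04 each).

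Complex III had 2 members higher and 2 lower without IFN-γ and 3 and 2 with it, of 9. Its core proteins moved apart: UQCRC2 rose by 0.22 and 0.30 (adjusted p = 6.4e-05 and 6.1e-07), and UQCRC1 fell by 0.26 and 0.26 (adjusted p = 2.5e-06 and 2.4e-06). UQCRC1 stood at 271, 294 and 289 CPM in wild type against 243, 238 and 235 in knockout, and at 272, 279 and 260 against 227, 226 and 224 with IFN-γ. The Rieske iron-sulphur protein UQCRFS1 fell by 0.25 with IFN-γ (adjusted p = 8.3e-05). Without IFN-γ its fall of 0.12 (adjusted p = 0.039) was lost without any of knockout replicates 2 and 3 and wild-type replicates 1 and 3 (adjusted p up to 0.25). UQCRH, the hinge protein, was at 0.05 and 0.03 and did not pass the test.

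Complex IV, cytochrome c oxidase, showed small differences. Of 11 tested members 2 were higher and 1 lower without IFN-γ, and 4 and 1 with it, and the largest log2 fold change in size was -0.30. COX4I1, the subunit through which ATP is known to regulate the enzyme, rose by 0.22 and 0.20 (adjusted p = 1.5e-05 and 8.3e-05), from 277, 288 and 285 CPM to 338, 331 and 326 without IFN-γ. COX6B1, which bridges the dimer, fell by 0.19 and 0.30 (adjusted p = 0.00034 and 4.9e-07). COX5A (0.04 and 0.07), COX7A2 (0.00 and -0.04) and COX7A2L (-0.05 and 0.02), a supercomplex factor, did not pass the test, and COX5B did only with IFN-γ (0.16, adjusted p = 0.0057, lost without knockout replicate 1 or wild-type replicate 3 with IFN-γ, up to 0.063).

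**Figure D2:**
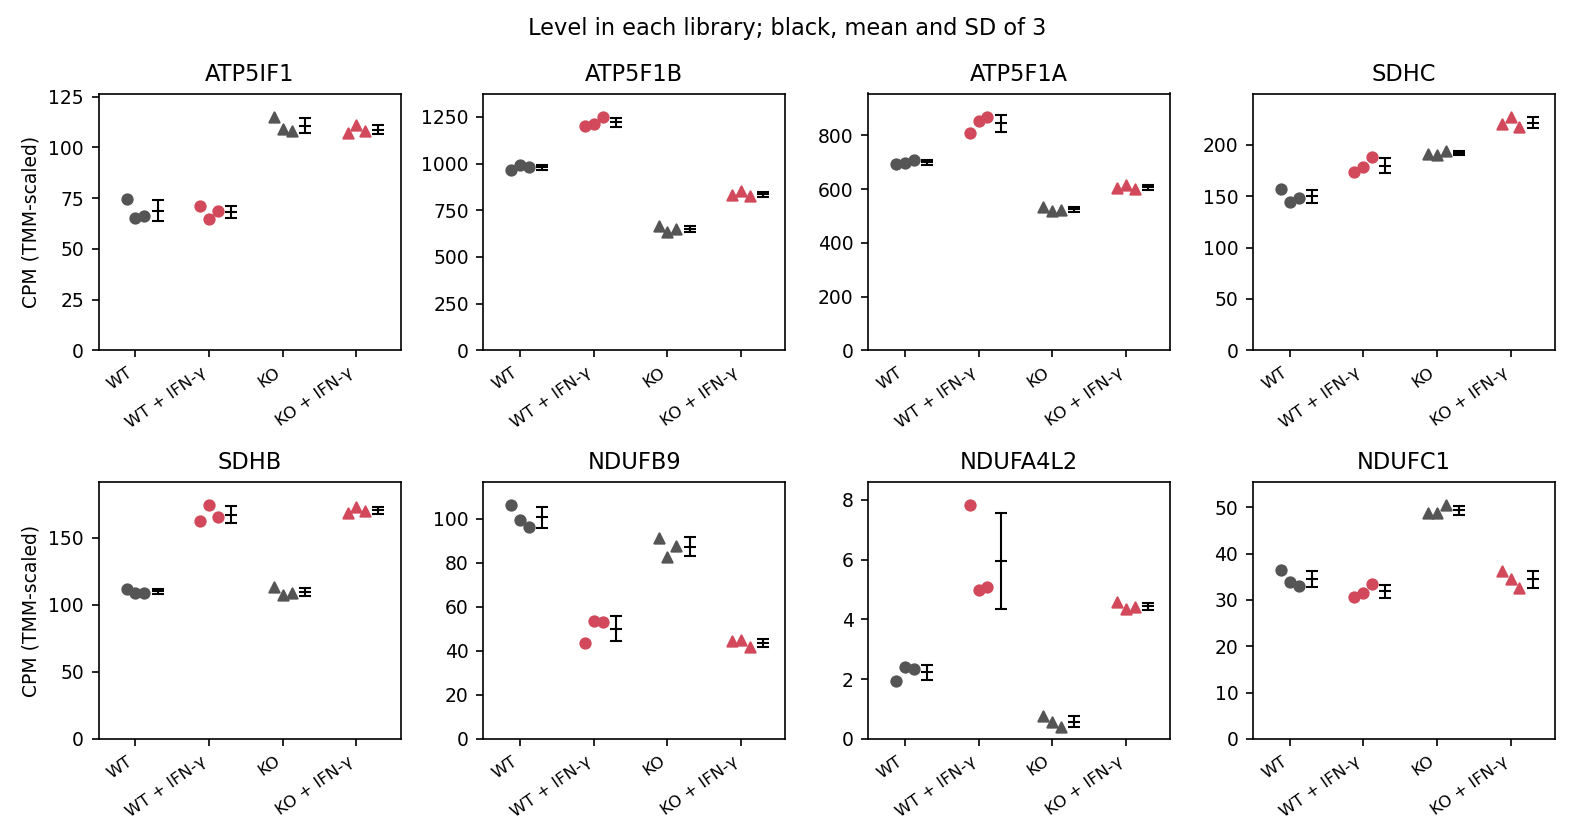
CPM of 8 members in each of the 12 libraries, on linear axes from 0. Circles are wild type, triangles knockout, red with IFN-γ, and the black mark beside each group is its mean and SD (n = 3). ATP5IF1, ATP5F1B, ATP5F1A and SDHC separate by genotype, SDHB and NDUFB9 by IFN-γ, and NDUFC1 is highest in knockout without IFN-γ (48.8 to 50.4 CPM).

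The genotype differences of the members went along with those of the genes beside them on the chromosome. For each member, the median log2 fold change of up to 10 tested genes on either side was taken, leaving all members out. SDHA had 11 such neighbours in all. Over 87 members, that median and the member's own value had a Pearson correlation of 0.65 (Spearman 0.58) without IFN-γ and 0.63 (0.53) with it. Members on 1 chromosome share neighbours, so these points are not independent and no p is given. Without IFN-γ, 9 of the 23 higher members lay among neighbours shifted up by more than 0.2, and 6 of the 18 lower ones among neighbours shifted down by as much. With IFN-γ it was 6 of 21 and 5 of 15, and 0 called members lay among neighbours shifted the other way. Of all 87 tested members, 21 lay among neighbours shifted by more than 0.2 in size without IFN-γ, and 19 with it. Neither that share nor the correlation was computed over all genes, so neither can be called particular to the members. Leaving out members with shifted neighbours, 14 were higher and 12 lower without IFN-γ, and 15 and 10 with it.

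Among the leading members, neighbours of ATP5F1B had a median of -0.69 without IFN-γ and -0.57 with it, beside its own -0.59 and -0.55. For ATP5F1A on chromosome 18 the medians were -0.40 and -0.48, and for NDUFA9 on chromosome 12 they were -0.43 and -0.61. All 3 tested members on chromosome 21 (NDUFV3, ATP5PF, ATP5PO) were higher, among neighbours at 0.25 to 0.53. SDHC, on chromosome 1q, had neighbours at 0.62 without IFN-γ and 0.68 with it. ATP5IF1 stood apart from this, with neighbours at -0.06 and 0.09, as did NDUFAF4 and UQCRC1, whose neighbours were within 0.2 of 0. Copy number was not analysed here, and what the knockout line shares along a chromosome was not tested.

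**Figure D3:**
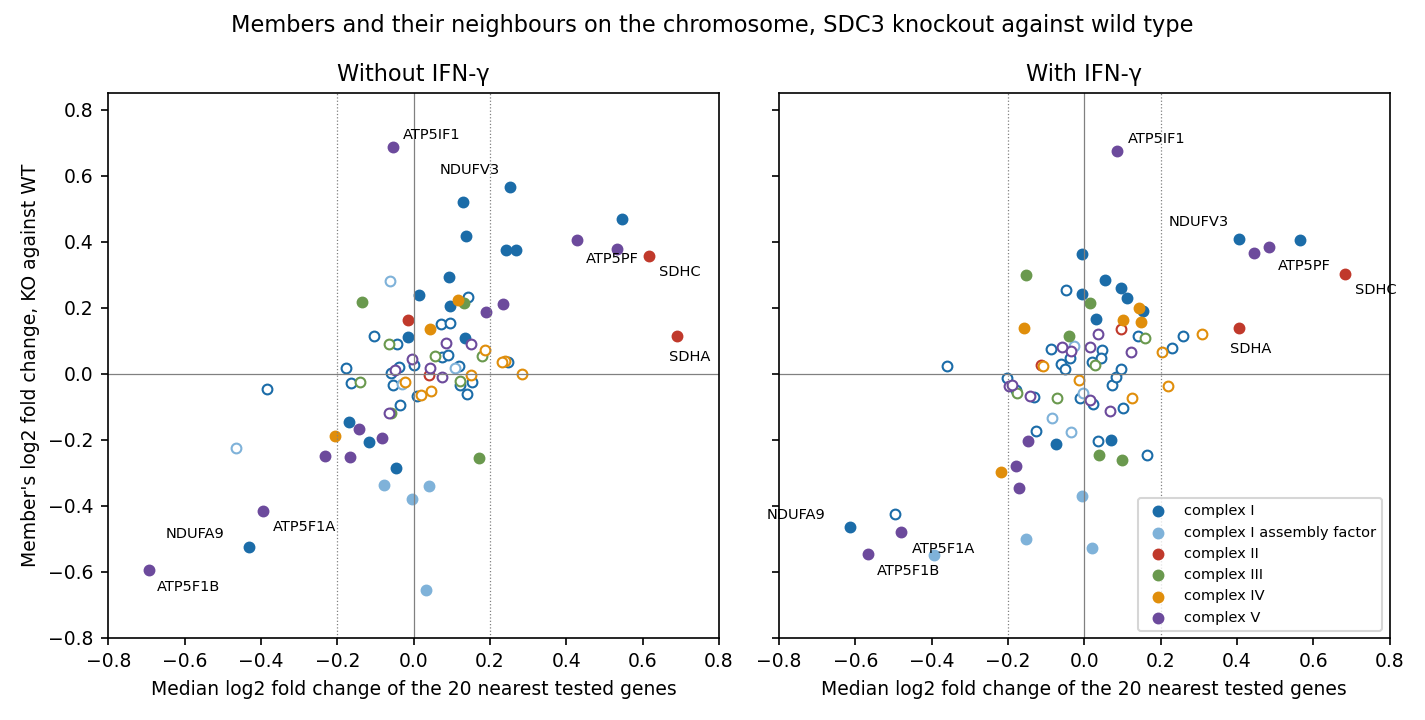
A member's log2 fold change, knockout against wild type (vertical), against the median of the 20 nearest tested genes (horizontal), without IFN-γ (left) and with it (right). Filled points passed the test, dotted lines mark a neighbour median of 0.2 in size, and NDUFA4L2 (-1.97) lies below the left panel. ATP5F1B, ATP5F1A and NDUFA9 sit at the lower left, SDHC at the upper right, and ATP5IF1 above neighbours near 0.

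IFN-γ moved the members in both genotypes, and the balance of higher and lower calls depended on how the libraries were set to a common level. With TMM scaling, 34 of 87 members were higher with IFN-γ and 11 lower in wild type, against 28.6% and 27.9% of all genes. In the knockout 31 were higher and 21 lower, against 29.2% and 31.8%. With library totals alone the counts became 5 higher and 49 lower in wild type and 5 and 59 in knockout, and with upper-quartile scaling 18 and 29, and 17 and 35. The counts of all 17119 tested genes turned as well. With library totals they were 2767 higher and 8260 lower in wild type, and 2787 and 9141 in knockout. With upper-quartile scaling they were 3751 and 6246, and 3928 and 6864. The median of all genes itself moved from -0.02 to -0.27 in wild type and from -0.05 to -0.35 in knockout between TMM and library totals. Between these scalings the log2 fold change changed sign in 35 of the 87 members in wild type and 36 in knockout. Of the lower calls, 11 of 11 in wild type and 20 of 21 in knockout were made under all 4 scalings. Upper-quartile scaling and library totals shift the values of all genes down from TMM. Lower calls could therefore hardly be lost under them, and their survival says little about these members. With TMM the members' median lay above that of all genes by 0.11 in wild type and 0.13 in knockout, a gap that a scaling, which moves all genes alike, leaves in place. In raw share, members took 0.951% to 0.965% of the counts in wild type and 0.857% to 0.881% with IFN-γ, and 0.903% to 0.924% and 0.773% to 0.794% in knockout.

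**Figure D4:**
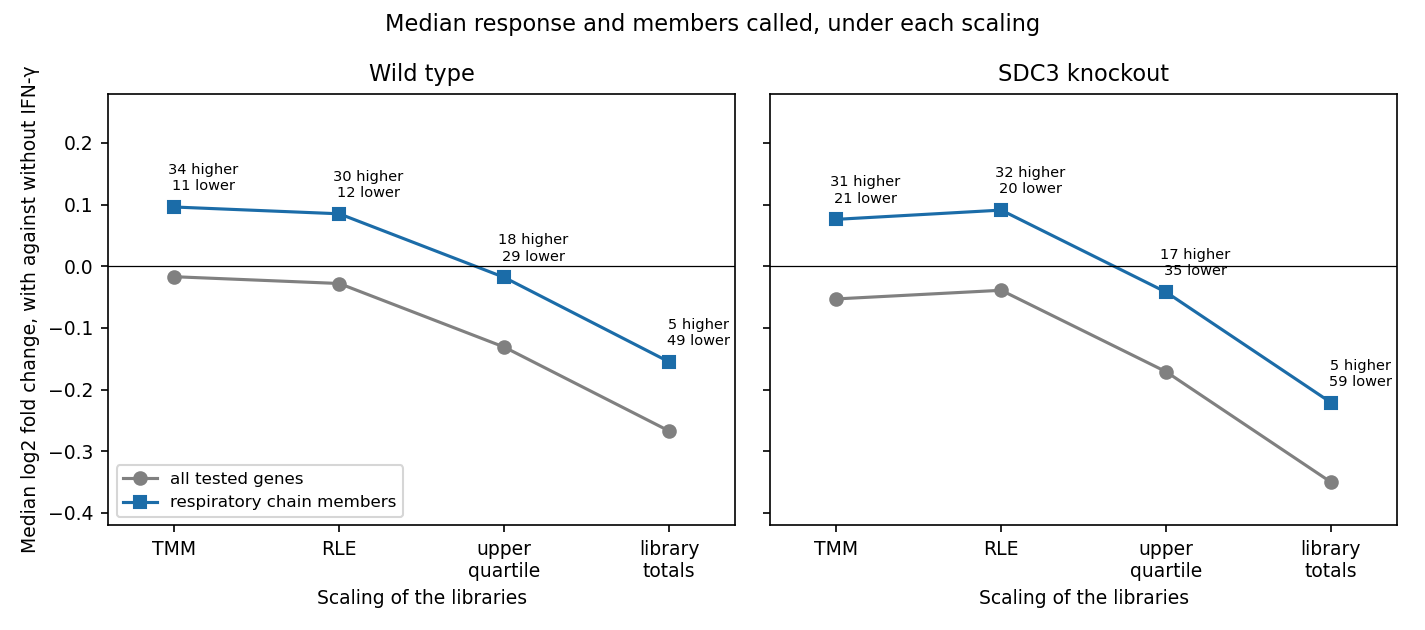
Median log2 fold change with against without IFN-γ (vertical) under 4 ways of scaling the libraries (horizontal), for all tested genes (grey circles) and the respiratory chain members (blue squares), in wild type and knockout. Labels give the members called at an adjusted p under 0.05. A scaling moves both medians alike, so the gap between them is fixed, while the counts turn from 34 higher and 11 lower to 5 and 49 in wild type. The counts of all tested genes turn there from 4896 higher and 4770 lower to 2767 and 8260.

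Under all 4 scalings, 5 members were higher in both genotypes. SDHB (chr1:17018722-17054170), which carries the iron-sulphur clusters of complex II, had 112, 109 and 109 CPM in wild type and 162, 174 and 165 with IFN-γ. In knockout it had 113, 107 and 109, and 168, 173 and 170 with IFN-γ. Treated and untreated libraries did not overlap in either genotype. The log2 fold changes were 0.60 (SE 0.04, adjusted p = 6.5e-14) and 0.63 (SE 0.04, adjusted p = 1.5e-14), and the rest of complex II moved less: SDHC by 0.26 and 0.21, SDHD by 0.18 and 0.15, and SDHA stood at 0.01 and 0.04. Under library totals SDHD in knockout was called lower (-0.14, adjusted p = 0.027), while SDHD in wild type (-0.07, adjusted p = 0.3) and SDHC in knockout (-0.09, adjusted p = 0.056) changed sign without passing the test.

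ATP5F1E, the epsilon subunit of ATP synthase (chr20:59025467-59032382), had 214, 195 and 206 CPM in wild type against 277, 281 and 289 with IFN-γ, and 173, 169 and 175 against 237, 239 and 222 in knockout. Its log2 fold changes were 0.46 and 0.43 (SE 0.04 each, adjusted p = 2.2e-11 and 1e-10). NDUFB3, a membrane-arm subunit of complex I, was at 0.42 and 0.47 (adjusted p = 3e-08 and 2.4e-09). NDUFA9 was at 0.52 and 0.58 (adjusted p = 3.1e-05 and 1.6e-05) at levels of 6.49 to 15.9 CPM. The remaining one was NDUFA4L2, given with the difference between genotypes.

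NDUFB9, an accessory subunit of complex I, fell most. It had 106, 99.2 and 96.3 CPM in wild type and 43.7, 53.6 and 52.9 with IFN-γ, and 91.2, 82.6 and 87.6 against 44.5, 44.8 and 41.6 in knockout. The log2 fold changes were -1.004 (SE 0.06, adjusted p = 1.8e-15) and -0.998 (SE 0.06, adjusted p = 2.5e-15), and all treated libraries lay below all untreated ones. With MTSS1 and TATDN1 it shares 19.7% of its exon bases, so part of its reads could have been left unassigned. Other members lower under all scalings in both genotypes were NDUFA10, NDUFA5, NDUFB6, NDUFV3, the assembly factor NDUFAF7, UQCRB and UQCRH. NDUFV3 fell by 0.19 in wild type (adjusted p = 0.0099, lost without replicate 3 of either wild-type group, up to 0.075) and by 0.35 in knockout (adjusted p = 6.2e-06).

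The complexes differed in balance under TMM scaling. Of all tested genes, 28.6% were higher and 27.9% lower in wild type, and 29.2% and 31.8% in knockout. In wild type, complex IV had 7 members higher and 0 lower of 11 and complex V 9 and 1 of 18. Complex II had 3 and 0 of 4, complex I 13 and 6 of 37, and complex III 1 and 3 of 9. In knockout the counts were 8 and 2 (IV), 9 and 1 (V), 3 and 0 (II), 11 and 12 (I) and 0 and 3 (III). Median log2 fold changes were 0.16, 0.14, 0.22, 0.07 and -0.13 in wild type in that order of complexes, and 0.15, 0.11, 0.18, 0.03 and -0.08 in knockout. These medians are relative to TMM, since the median of all genes moves with the scaling. The number of members lower in knockout, 21, was 13 without replicate 3 of the knockout with IFN-γ.

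**Figure D5:**
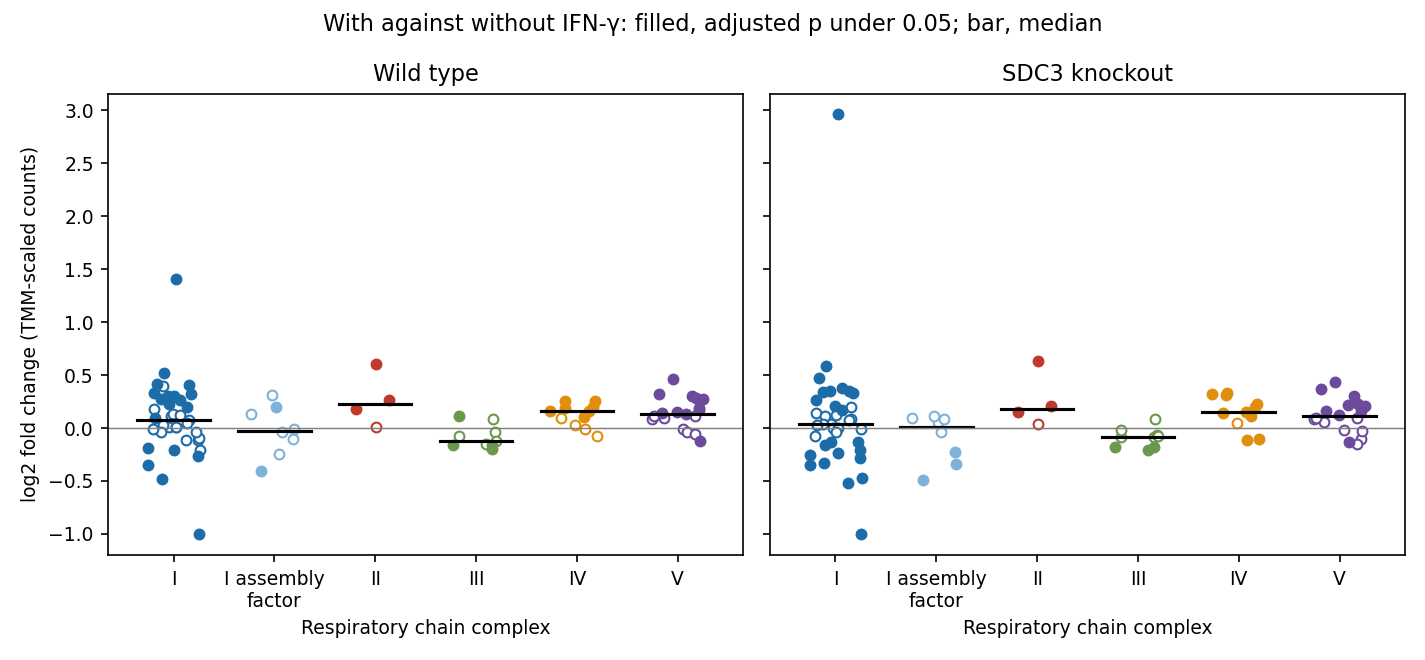
Log2 fold change with against without IFN-γ for the 87 tested members, by complex, in wild type (left) and knockout (right), TMM-scaled. Points are genes, filled at an adjusted p under 0.05, and black bars are medians. NDUFA4L2 is the top point (1.41 and 2.96), NDUFB9 the bottom one (-1.004 and -0.998), and complex III has the lowest median among the complexes.

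Other members gave these values with IFN-γ. ATP5F1B rose by 0.32 in wild type and 0.36 in knockout (adjusted p = 8.6e-10 and 3.8e-11), and ATP5F1A by 0.27 and 0.21, with TMM. With library totals ATP5F1B stood at 0.07 in both genotypes and ATP5F1A at 0.02 in wild type, none of them called, and ATP5F1A in knockout was called lower (-0.09, adjusted p = 0.018). COX7A2 (0.26 and 0.22), COX7A2L (0.25 and 0.33) and COX5B (0.19 and 0.31) were higher with TMM, and with library totals they stood between -0.07 and 0.03. UQCRH fell by 0.16 and 0.18 and UQCRB by 0.20 and 0.17. The UQCRH copy UQCRHL was at -0.04 and -0.07 and did not pass the test. NDUFAF7 fell by 0.41 and 0.49 at 8.41 to 14.8 CPM. In knockout, ATP5MC2 fell by 0.13 (adjusted p = 0.0044) and UQCR11 by 0.20 (adjusted p = 0.033, lost under DESeq2 and without any of 5 libraries, up to 0.14). ATP5MC3 fell by 0.13 in wild type (adjusted p = 0.0075, lost without wild-type replicate 1 with IFN-γ, at 0.084).

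Weaker calls rested on single libraries in addition to the scaling. UQCRFS1 (0.11, adjusted p up to 0.24, and lost under DESeq2) and NDUFAF1 (0.20, up to 0.15) in wild type lost theirs without any of 4 and 3 libraries, and with library totals UQCRFS1 was called lower (-0.14, adjusted p = 0.011) and NDUFAF1 did not pass the test (-0.05, adjusted p = 0.59). In knockout, COX4I1 (-0.10, up to 0.18) and NDUFV1 (-0.13, up to 0.13) lost theirs without any of 4 libraries, and COX6B1 (-0.12, up to 0.12) without any of 3. NDUFAF5 (-0.34, up to 0.077) lost its call without knockout replicate 2 of either treatment, and NDUFA4 (-0.13, 0.082) without knockout replicate 3 with IFN-γ. SDHD lost its call in knockout without untreated replicate 1 (0.21) and in wild type without untreated replicate 2 (0.058).

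Did IFN-γ act differently in the 2 genotypes? Of 87 members, 1 had a higher response in the knockout and 1 a lower one by the test of the difference itself, where 7.61% and 7.86% of all genes did. Of the members higher with IFN-γ, 27 were called in both genotypes (79.4% of those in wild type and 87.1% of those in knockout), and of the lower ones 8 (72.7% and 38.1%). Over all tested genes these shares were 81.6% to 83.4% for higher calls and 81.0% and 70.9% for lower ones. Over the 87 members the 2 responses, which share no library, had a Pearson correlation of 0.88, across genes that are not independent replicates, against 0.87 over all genes.

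NDUFA4L2 (chr12:57234903-57240715), a paralog of NDUFA4 known as a target of hypoxia-inducible factor, had 1.94, 2.40 and 2.35 CPM in wild type and 7.82, 4.98 and 5.08 with IFN-γ. In knockout it had 0.756, 0.574 and 0.387, and 4.58, 4.36 and 4.4 with IFN-γ. The genotypes lay apart without IFN-γ (-1.97 on the log2 scale, SE 0.26, adjusted p = 1.1e-07), and closer with it (-0.42, SE 0.18, adjusted p = 0.051). The response was 1.41 (SE 0.19) in wild type and 2.96 (SE 0.24) in knockout, a difference of 1.55 (SE 0.32, adjusted p = 0.00061). These are low counts, and the gene's neighbours had a median of -0.71 in the knockout without IFN-γ and -0.50 with it.

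NDUFC1, an accessory subunit of the complex I membrane arm (chr4:139266880-139302551), had 36.4, 33.8 and 33.1 CPM in wild type and 30.6, 31.5 and 33.4 with IFN-γ, which overlap. In knockout it had 48.8, 48.8 and 50.4, and 36.3, 34.5 and 32.5 with IFN-γ. The knockout without IFN-γ stood above the other 3 groups (0.52 against wild type, SE 0.06, adjusted p = 1.3e-08). The difference of responses was -0.41 (SE 0.09, adjusted p = 0.0011). With MGARP the gene shares 18.5% of its exon bases.

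The other genes of the pathway were followed by lists of assembly factors, carriers, the tricarboxylic acid cycle and their regulators. For comparison with the genotype counts of each list, 25.4% of all tested genes were higher and 24.8% lower without IFN-γ. With IFN-γ it was 22.9% and 24.3%. List medians between genotypes ran from -0.12 (complex III factors) to 0.30 (complex II factors) without IFN-γ and from -0.21 (complex V factors) to 0.18 (complex II factors) with it. Between genotypes, without IFN-γ and with it in turn, 1 then 3 of 13 further complex I assembly factors were higher and 4 then 3 lower. For complex II it was 2 then 0 of 4 higher and 0 lower, for III 0 then 1 of 6 higher and 3 then 3 lower. For IV it was 3 then 2 of 25 higher and 5 then 6 lower, and for V 1 then 1 of 3 higher and 1 then 1 lower. COX10, which makes haem for complex IV, fell by 0.69 and 0.70, and SCO1, which delivers copper to it, by 0.53 and 0.54. SURF1, another complex IV factor, rose by 0.53 and 0.44. UQCC1 (-0.25 and -0.28) for complex III and ATPAF2 (-0.32 and -0.47) for complex V were lower as well.

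Among 19 carriers and transporters, 8 were higher and 5 lower without IFN-γ, and 6 and 2 with it. COQ4 rose by 0.52 and 0.29 and COQ3, a methyltransferase of ubiquinone synthesis, was at -0.94 and -1.02. COQ3 was low, with group means of 1.99 to 4.35 CPM. Of 18 tricarboxylic acid cycle genes, 3 were higher and 8 lower, and 2 and 6. Citrate synthase (CS) fell by 0.80 and 0.70, from means of 279 and 291 CPM in wild type to 160 and 179, and IDH2 rose by 0.32 and 0.24. Genes of these lists, unlike the members, were not set beside their neighbours on the chromosome. Of 77 mitochondrial ribosomal protein genes, 20 were higher and 19 lower, and 20 and 18, near the shares of all genes. Of 18 genes of mitochondrial DNA expression, 2 were higher and 7 lower, and 2 and 8, with TWNK, the mitochondrial helicase, at -0.92 and -0.51. UCP2, an uncoupling protein relative, fell by 0.68 and 0.59, and 1 and 3 of the 6 tested genes of such routes were higher and 2 and 1 lower. These balances depended on the scaling. By library totals alone, 3869 of 17119 tested genes were higher and 4626 lower without IFN-γ, and 2887 and 5213 with it. Carriers then had 5 higher and 5 lower without IFN-γ, and 3 and 7 with it. Mitochondrial ribosomal protein genes then had 14 and 23, and 11 and 26. Tricarboxylic acid cycle genes had 1 and 9, and 2 and 9, and genes of mitochondrial DNA expression 2 and 8, and 0 and 8.

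Of 13 biogenesis regulators, 5 were higher and 4 lower in the knockout without IFN-γ, and 6 and 2 with it. By library totals alone this was 4 and 7, and 5 and 4, beside the counts of all genes given above for that scaling. GABPA, whose exons overlap those of ATP5PF on chromosome 21, rose by 0.46 and 0.51, and SIRT3 by 0.95 and 0.47. MYC fell by 1.04 and 2.03. With IFN-γ, PPARGC1A, the coactivator that drives mitochondrial biogenesis, fell by 3.69 in wild type and 3.44 in knockout, from means of 27.1 and 23.9 CPM to 2.08 and 2.20. NFE2L2 rose by 0.48 and 0.81. In all, 5 and 6 of the 13 regulators were higher with IFN-γ and 3 and 3 lower, and with library totals 2 and 3 higher and 8 and 8 lower.

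The list medians of the IFN-γ response ran from -0.13 to 0.11 in wild type and from -0.24 to 0.34 in knockout. For comparison with the counts of each list, 28.6% of all tested genes were higher and 27.9% lower in wild type. In knockout it was 29.2% and 31.8%. By library totals alone, 2767 of 17119 genes were higher and 8260 lower in wild type, and 2787 and 9141 in knockout. With IFN-γ, 9 of 25 complex IV assembly factors were higher and 2 lower in each genotype, led by SCO1 (0.97 and 0.97), and with library totals 1 and 2 were higher and 11 lower. For complex I factors it was 4 and 3 of 13 in each genotype, with TMEM126B at 0.88 and 1.19. Complex II factors had 0 higher in either genotype and 0 and 1 lower of 4, complex III factors 1 and 0 higher and 3 and 2 lower of 6, and complex V factors 0 higher and 1 lower of 3 in each. SQOR, which feeds electrons from sulphide into the chain, rose by 1.19 and 1.56, and its response was larger in the knockout by 0.38 (adjusted p = 4.4e-05). In all, 3 and 3 of the 6 tested genes of alternative routes were higher and 1 and 2 lower.

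Cytochrome c (CYCS), the mobile carrier between complexes III and IV, had means of 95.8 CPM in wild type and 101 with IFN-γ, and of 76.7 and 110 in knockout. It rose by 0.52 in knockout, and the difference of responses was 0.44 (adjusted p = 2.6e-05). Of the 19 carriers, 4 were higher and 5 lower in wild type and 2 and 8 in knockout. Tricarboxylic acid cycle genes had 6 higher and 5 lower in wild type and 7 and 4 in knockout of 18, with SUCLG2, a subunit of succinyl-CoA synthetase, at 0.83 and 0.91. ACOD1, which makes itaconate, was at 0 CPM in all libraries without IFN-γ and had means of 0.676 and 1.16 CPM with it. Genes of mitochondrial DNA expression had 5 and 5, and 6 and 5, of 18, and mitochondrial ribosomal protein genes 23 and 15, and 24 and 22, of 77. With library totals the counts turned mostly to lower, as did those of all genes given above. Carriers had 0 higher and 14 lower in wild type and 1 and 17 in knockout, and tricarboxylic acid cycle genes 3 and 12, and 3 and 14. Genes of mitochondrial DNA expression then had 1 and 12, and 2 and 9, and mitochondrial ribosomal protein genes 9 and 39, and 10 and 49. Assembly factors then had 3 and 8 in each genotype for complex I, 0 and 4, and 0 and 6 for complex III, and 0 and 2, and 0 and 3 for complex V.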

How the data were processed

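Messenger RNA was measured in 12 libraries made with a stranded poly(A) kit from 1 µg of total RNA each, as the labels' protocols state. What the authors deposited is 1 table of raw counts, genes by libraries (hg38). It was made with featureCounts 2.0.3 over exons, per the file headers, primary alignments only, without a strand option and with mates counted separately, so antisense and overlapping genes cannot be told apart. STAR 2.7.10b, BWA, fastp 0.23.2 and Picard 2.27.5 are listed in the submitters' processing notes, and the annotation release is not given in the sources used here.

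Here, genes were filtered with edgeR's filterByExpr (17119 genes left), scaled by TMM and tested with the quasi-likelihood method of edgeR 4.0.16, using 1 model of group over the 12 libraries, with Benjamini-Hochberg adjustment over all genes (two-sided, called under 0.05). Symbols matched 56948 genes, and gene types came from GENCODE 29. Alternatives were DESeq2 1.42.0, limma-voom 3.58.1, RLE, upper-quartile and library-total scaling, other filters, a replicate block, and leaving out each library. Members with shared exons or shifted neighbours were left out as alternatives chosen after seeing the data. A count of 3 was 0.0925 to 0.13 CPM. The fit was tested on simulated counts. Replicate pairs differed by more than counting noise (chi-square per degree of freedom 2.9 to 7.58).

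Named were, per complex and comparison, the member with the largest rise and fall (at least 5 CPM), a panel of 27 members, and up to 2 rises and 2 falls of a pathway list, of which some are given. Library values are printed for the members the results turn on; others were singled out after their values were seen. The members and lists were chosen with earlier results of these data known. One subunit is not reported here by name and stays in the counts over members.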

Additional observations from a re-analysis of the deposited data

Results flagged for a closer look

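By the test of the difference between the IFN-γ responses of the 2 genotypes, 2 members stood out. NDUFA4L2 responded more in the knockout, by 1.55 on the log2 scale, and NDUFC1 less, at -0.41. Both were also called by DESeq2 and limma-voom, under each of the 4 scalings, and without any single library.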

How the results depend on the processing

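Between genotypes, library totals alone gave 13 higher and 29 lower members with IFN-γ (against 21 and 15) and 14 higher without it (against 23). The counts of all genes turned with the scaling too and are given with the results above. For the IFN-γ responses they gave 5 and 49 in wild type and 5 and 59 in knockout, and 5 members with a lower response in knockout; upper-quartile scaling gave 18 and 29, and 17 and 35. Requiring a log2 fold change of at least 0.5 left 1 higher and 4 lower (knockout with IFN-γ), 3 and 4 (without), 3 and 1 (response in wild type), 3 and 2 (in knockout), and 0 lower for the difference. The share of all genes at that size was not counted. With at least 5 CPM in 3 libraries, 18 were lower with IFN-γ in wild type, and 0 had a higher response in knockout, since NDUFA4L2 was then not tested. Leaving out members with shifted neighbours left 14 higher in knockout without IFN-γ. Without 1 library, 13 to 19 were lower with IFN-γ in knockout, and 1 or 2 had a lower response in knockout (2 without wild-type replicate 1 or 3 with IFN-γ, or wild-type replicate 1). With library totals, 3 IFN-γ calls became calls in the other direction: ATP5F1A (-0.0895, adjusted p = 0.018) and SDHD (-0.14, 0.027) in knockout and UQCRFS1 (-0.14, 0.011) in wild type. Other named calls changed sign without passing the test: COX7A2 (-0.0749, 0.11) and SDHC (-0.088, 0.056) in knockout, COX5B (-0.0654, 0.23), NDUFAF1 (-0.0504, 0.59) and SDHD (-0.0696, 0.3) in wild type, and, with upper-quartile scaling, UQCRFS1 (-0.0011, 0.99). The cause was not tested.

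Of 94 named calls, 0 reversed under DESeq2, limma-voom, RLE, either filter, or without 1 library, and 5, 0 and 5 were lost under the first 3. Library numbers did not pair the samples (correlations of -0.252 to 0.309 for same-numbered libraries, 4 of 18 pairs over 0.1). With a replicate block, 21 and 15, 23 and 18, 32 and 11, and 30 and 21 members were called, and 1 of the 94 calls was lost. Standard errors ran from 0.034 to 0.258 between genotypes without IFN-γ.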
